A study of Mus musculus with 8 samples.

Results

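Of 10 genes of neutrophil granules, surface and growth factor signalling chosen by symbol, 6 had a row among the 15047 genes of the rlog table: Csf3, Csf3r, Mmp8, Retnlg, Ltf and Trem1. The other 4 genes, Mpo, Camp, Ngp and Ly6g, were not analysed here, so the values below describe 6 genes and not the whole list. Calprotectin and Cxcr2 were not part of the list. The RNA came from the pancreas of 8 male mice. The compared groups were 3 C57BL/6 WT mice on LFD, 3 C57BL/6 WT mice on HFD and 2 leptin-deficient mice (C57BL/6J; ob/ob) on standard chow. Diets were started at the age of 4 weeks, by the study's methods, and LFD and HFD were given for 10 weeks, where fat gave 60% of the calories of the HFD. The ob/ob mice differed from LFD mice in both genotype and chow, so these cannot be told apart. By the study, all 8 mice carried mT organoids in the pancreas, which were grown from mouse pancreatic tumors. The sample labels name the tissue only as pancreas, and no mouse without a transplant was sequenced. Replicates are different mice of a group.

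Neutrophils are short-lived granulocytes that leave the bone marrow under the control of granulocyte colony-stimulating factor (G-CSF, the product of Csf3), which binds its receptor Csf3r on cells of the granulocyte lineage. During maturation they fill several classes of granules in sequence. Azurophil granules hold Mpo, and specific granules hold lactoferrin (Ltf), the cathelicidin Camp, Ngp and the neutrophil collagenase Mmp8, whose transcripts are made mainly in the marrow. Retnlg is a resistin-like protein of mouse granulocytes, Ly6g is the surface antigen by which mouse neutrophils are identified, and Trem1 is a receptor that amplifies inflammatory signals in neutrophils and monocytes. Ltf is also made by glandular epithelia, and Csf3 by fibroblasts, endothelial cells and macrophages. The term neutrophil genes below therefore names the list, and the cells that made the RNA were not identified. In whole tissue, a higher value can come from more cells of a type or from more RNA per cell, and these cannot be told apart.

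The values are rlog values, that is, counts on a log2 scale corrected for library size, with differences shrunk for genes with few reads. Medians per mouse ranged from 7.09 to 7.25. The mean of Csf3 over the 8 mice was 3.39, above 8.68% of all genes, and that of Mmp8 was 3.63, above 10.5%, and rlog shrinks differences more at low counts. The mice differed in tissue composition. The 26 acinar genes had a mean rlog value between 17.10 and 17.66 in LFD mice and of 17.51 in HFD replicate 1, but of 15.38 and 13.47 in HFD replicates 2 and 3 and of 16.78 and 13.78 in ob/ob replicates 1 and 2. The mean of 5 leukocyte markers (Ptprc, Cd53, Laptm5, Coro1a and Itgb2) was between 7.94 and 8.94 in LFD, between 8.91 and 9.72 in HFD, and 9.45 and 9.97 in ob/ob. Defining genes of the granulocyte precursor, namely Elane, Ctsg, Ms4a3 and Fcnb, were not analysed here.

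To show the DNA in front of the 3 granule and secreted protein genes with values, the bases before their RefSeq start sites (build GRCm38.p6, plus strand) are printed 5′ to 3′. Capitals mark matches to TTGCNNAA, a letter string bound by C/EBP factors, or to GAGGAA, the core recognised by PU.1, each searched on both strands.
Mmp8, chr9:7558179-7558428: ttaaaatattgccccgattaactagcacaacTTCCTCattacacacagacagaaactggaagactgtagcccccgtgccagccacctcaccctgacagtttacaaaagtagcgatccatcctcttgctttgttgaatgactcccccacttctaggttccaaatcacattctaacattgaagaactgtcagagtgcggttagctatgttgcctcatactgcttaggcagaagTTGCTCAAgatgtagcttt
Retnlg, chr16:48872358-48872607: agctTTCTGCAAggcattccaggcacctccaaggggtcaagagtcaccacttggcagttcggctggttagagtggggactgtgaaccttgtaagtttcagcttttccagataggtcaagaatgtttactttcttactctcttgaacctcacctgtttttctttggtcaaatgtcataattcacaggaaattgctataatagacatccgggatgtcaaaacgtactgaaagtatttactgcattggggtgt
Ltf, chr9:111019042-111019270: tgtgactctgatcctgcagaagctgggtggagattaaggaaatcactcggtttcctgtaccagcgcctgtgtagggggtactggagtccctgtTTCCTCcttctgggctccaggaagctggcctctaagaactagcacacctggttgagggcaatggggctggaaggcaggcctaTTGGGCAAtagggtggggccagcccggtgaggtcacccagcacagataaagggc
A C/EBP match began 19 bases before the start of Mmp8, 246 bases before that of Retnlg and 75 bases before that of Ltf. The PU.1 letters began 219 bases before Mmp8 and 157 bases before Ltf. Of the 5 genes with values that had a promoter in the RefSeq table, 3 held a C/EBP match and 4 a PU.1 match within 250 bases, whereas 9.57% and 23.3% of 32841 promoters did. These counts use all 250 bases before the RefSeq start. The PU.1 match of Csf3r, 86 bases before that start, lies past its earlier Gencode start. Such a match is a description of letters and not of binding.

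Csf3 (chromosome 11 of GRCm38, 98701263 to 98703629, Gencode M21) was high in 2 of the 8 mice. Its rlog value was 2.31, 3.48 and 2.53 in LFD replicates 1 to 3, and 2.45, 5.45 and 4.97 in HFD replicates 1 to 3. The ob/ob mice had 3.08 and 2.82. HFD replicates 2 and 3 were therefore above all other mice, while HFD replicate 1 and both ob/ob mice lay within the range of LFD. The difference between HFD and LFD was 1.52 on the log2 scale (standard error 0.72, adjusted p = 0.278 with limma), and that between ob/ob and LFD was 0.17 (standard error 0.80, adjusted p = 0.919).

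Csf3r (chromosome 4, 126024550 to 126044440), the receptor, had rlog values of 6.11, 6.92 and 5.36 in LFD replicates 1 to 3. The 3 HFD mice had 6.35, 7.87 and 8.40, in the order of their numbers, and the ob/ob mice 7.47 and 7.14. As for its ligand, HFD replicates 2 and 3 had the highest values and HFD replicate 1 lay within LFD, but both ob/ob mice were above all LFD mice. The receptor differed by 1.41 between HFD and LFD (standard error 0.55, adjusted p = 0.225 with limma) and by 1.17 between ob/ob and LFD (standard error 0.62, adjusted p = 0.32).

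Of the granule genes, Mmp8 (chromosome 9, 7558456 to 7568485) had the smallest standard error. Its rlog value was 2.54, 2.58 and 3.01 in LFD replicates 1 to 3 and 3.74, 4.71 and 4.45 in HFD replicates 1 to 3, while both ob/ob mice lay close together at 4.02 and 4.01. No obese mouse reached down to the LFD range, including HFD replicate 1, whose acinar genes were at the level of LFD. With the acinar mean as a covariate, Mmp8 differed by 1.39 between HFD and LFD and by 1.09 between ob/ob and LFD. The part of acinar content in its values was not tested further. LFD averaged 2.71 ± 0.26, HFD 4.30 ± 0.50 and ob/ob 4.02 ± 0.01 (mean ± SD of 3, 3 and 2 mice). Mmp8 was higher by 1.59 in HFD (standard error 0.32, adjusted p = 0.175 with limma) and by 1.31 in ob/ob (standard error 0.35, adjusted p = 0.191), which are 3.02-fold and 2.48-fold on the rlog scale.

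Retnlg (chromosome 16, 48872621 to 48874496) was at 3.87, 4.68 and 3.87 in LFD replicates 1 to 3. It was at 6.09, 6.24 and 5.42 in HFD replicates 1 to 3 and at 5.69 and 4.43 in the ob/ob mice. HFD did not overlap with LFD, and ob/ob replicate 2 was below LFD replicate 2. Here HFD replicate 1 was among the highest mice, unlike for Csf3 and Csf3r. The difference was 1.77 between HFD and LFD (standard error 0.42, adjusted p = 0.176 with limma) and 0.92 between ob/ob and LFD (standard error 0.47, adjusted p = 0.309).

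Ltf (chromosome 9, 111019271 to 111042767) had a higher mean in HFD and a lower mean in ob/ob than in LFD. Its rlog value was 7.56, 9.11 and 8.42 in LFD replicates 1 to 3, 9.08, 9.77 and 9.21 in the HFD mice in the same order, and 7.75 and 7.21 under ob/ob. All HFD mice were above the LFD mean of 8.36 and both ob/ob mice were below it, although each group overlapped with the wide range of LFD. Ltf differed by 0.99 between HFD and LFD (standard error 0.38, adjusted p = 0.222 with limma) and by -0.88 between ob/ob and LFD (standard error 0.43, adjusted p = 0.291).

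Trem1 (chromosome 17, 48232768 to 48246924) contains on its other strand the processed pseudogene AC241601.2, and reads of the 2 may not be separable. Its rlog value was 4.54, 4.70 and 3.99 in LFD replicates 1 to 3, 4.81, 6.41 and 6.22 for HFD in the same order, and 5.15 and 5.95 for ob/ob. Every obese mouse was above every LFD mouse, though HFD replicate 1 only by a small margin. The difference was 1.40 for HFD (standard error 0.46, adjusted p = 0.196 with limma) and 1.14 for ob/ob (standard error 0.52, adjusted p = 0.272).

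**Figure D1:**
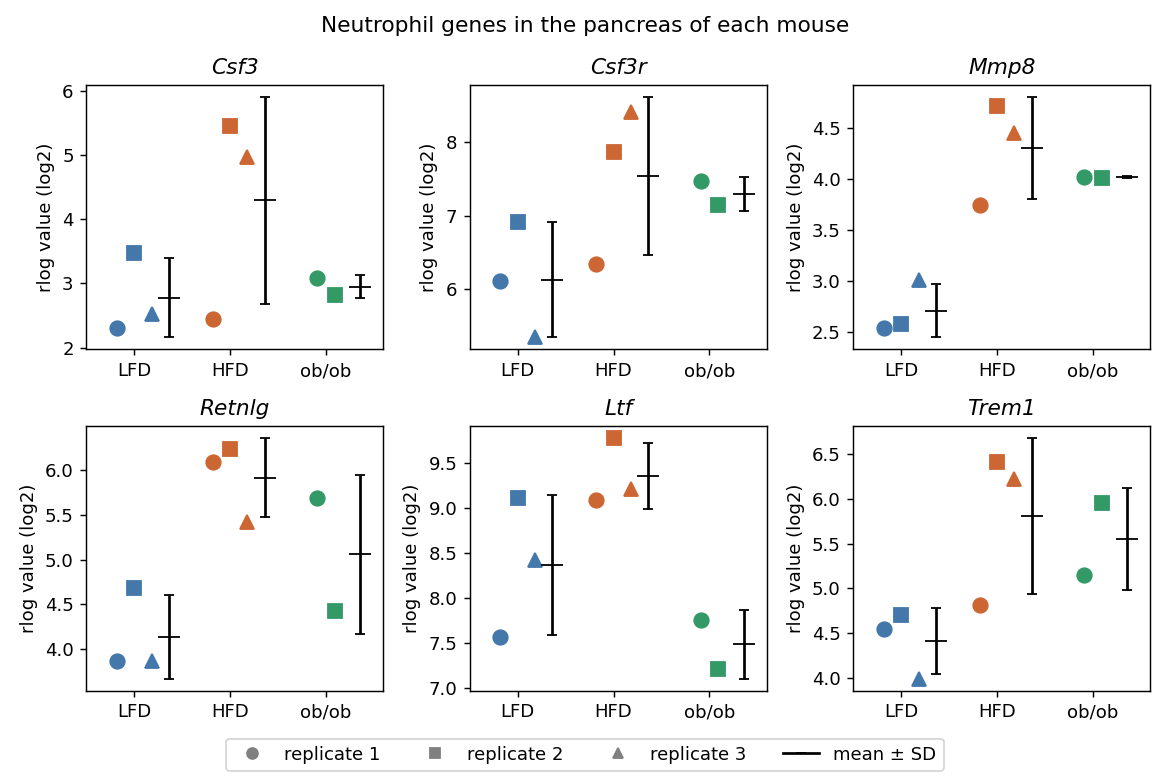
The rlog value (log2 scale) of 6 neutrophil genes in each mouse by group, with the replicate number as the symbol and the mean ± SD in black. HFD replicates 2 and 3 have the highest Csf3, Csf3r and Trem1, while Mmp8 is above LFD in all 5 obese mice and Ltf is lowest in ob/ob replicate 2.

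To compare the obese groups with LFD, limma was run on all 15047 genes, and 0.0% of them had an adjusted p-value under 0.05 in any comparison, including the 6 neutrophil genes. At an unadjusted p-value under 0.05, 5 of the 6 genes were higher in HFD than in LFD, compared with 11.5% of all genes, the exception being Csf3. Only Mmp8 was higher in ob/ob than in LFD by the same measure, compared with 11.6% of all genes. The mice did not overlap for Mmp8, Retnlg and Trem1 in HFD against LFD, as for 12.9% of all genes in this direction, and for Mmp8, Csf3r and Trem1 in ob/ob against LFD, as for 24.1%. The median difference of the 6 genes was 1.46 for HFD and 1.03 for ob/ob, where the median of all genes was 0.03 and 0.04. With the mean of both obese groups set against LFD, Mmp8, Retnlg, Csf3r and Trem1 were higher at an unadjusted p-value under 0.05, 4 of 6 genes against 14.5% of all genes. Mmp8 had the lowest adjusted p-value of the 6, 0.0892, with a difference of 1.45 (standard error 0.29, limma). Mmp8 and Trem1 did not overlap between the 5 obese and the 3 LFD mice, as did 9.4% of all genes in this direction. For each of them the exact permutation test (5 against 3 mice, two-sided) gave p = 0.0357, the smallest p this design allows. Csf3r and Retnlg had p = 0.0714, Csf3 had p = 0.357 and Ltf p = 0.75 in the same exact test. As 4 of the 10 listed genes had no values, these counts do not describe the list.

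The comparisons were repeated without single mice and with the acinar mean or the leukocyte markers as a covariate. Without HFD replicate 1, 5 of the 6 passed an adjusted p-value of 0.05 between HFD and LFD (0.0154 to 0.0432, limma), with Ltf as the exception, as had 18.7% of all genes. The difference of Csf3 was then 2.44 and that of Csf3r 2.01. In the comparison of both obese groups with LFD the same 5 genes passed without that mouse (adjusted p = 0.0124 to 0.0496), as did 22.1% of all genes. Without it every obese mouse had a lower acinar mean than every LFD mouse. Obesity and acinar content therefore cannot be told apart in these 2 fits. With all 8 mice and the acinar covariate, HFD differed from LFD by 0.82 for Csf3r, 0.80 for Csf3 and 0.76 for Trem1. The difference was then 1.39 for Mmp8, 2.27 for Retnlg and 1.11 for Ltf. At the unadjusted level, the count of genes between HFD and LFD dropped from 5 to 3 without LFD replicate 1 and to 2 without LFD replicate 3 or without HFD replicate 2. The share of all genes at this level, in either direction, dropped too, from 19.8% to 12.9%, 10.6% and 9.84% in these fits. Mmp8 and Retnlg were among the counted genes each time. With the mean of the 5 leukocyte markers as a covariate, the difference between HFD and LFD was 1.44 for Mmp8 and 1.80 for Retnlg, but 0.11 for Csf3r, 0.75 for Ltf, 0.25 for Trem1 and 0.06 for Csf3. Mmp8 and Retnlg, 2 of the 6 genes, had an unadjusted p-value under 0.05 in that fit, as had 3.88% of all genes, and neither passed the adjusted threshold. Against LFD, the median of the 6 genes turned to -0.50 for ob/ob and to -0.16 for both obese groups with this covariate. Csf3r was then at -0.59 and -0.24, Csf3 at -1.80 and -0.87 and Trem1 at -0.42 and -0.08, while Mmp8 stayed positive at 1.10 and 1.27 and Retnlg at 0.96 and 1.38. The unadjusted p-values with limma were 0.105 and 0.0371 for Mmp8 and 0.259 and 0.0719 for Retnlg, and none passed after adjustment. The part of leukocyte content in the differences was not tested further.

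**Figure D2:**
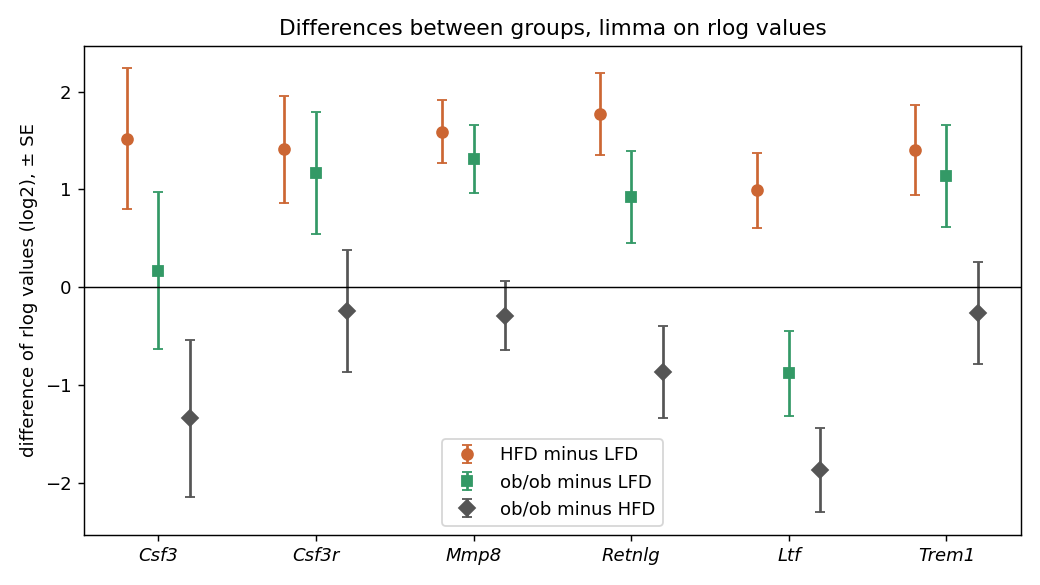
Difference of rlog values (log2) with its standard error for the 6 genes in 3 comparisons, from limma with all 8 mice. Points above 0 are higher in the first group named. Ltf lies at 0.99 for HFD and at -0.88 for ob/ob against LFD.

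Between the 2 obesity models, all 6 genes had a lower mean in ob/ob than in HFD, with a median difference of -0.57, where 51.7% of all genes had a positive difference. Ltf had the largest, -1.87 (standard error 0.43, adjusted p = 0.883 with limma), and was the only one of the 6 genes whose mice did not overlap between the groups, as for 5.42% of all genes in this direction. It was also the only one of the 6 with an unadjusted p-value under 0.05, where 1.63% of all genes were lower. On the rlog scale this is 3.66-fold lower in ob/ob. Csf3 differed by -1.34 (standard error 0.80), Retnlg by -0.86 (standard error 0.47), and Mmp8, Csf3r and Trem1 by -0.29, -0.24 and -0.26. Several marker lists were also lower in ob/ob than in HFD, while others were higher. Leukocyte markers had a higher mean in ob/ob for 5 of 5, with a median of 0.26. The same held for 7 of 8 monocyte and macrophage markers (median 0.62) and 4 of 5 fibroblast markers (median 0.35). Of the markers of duct-type and tumor epithelium 8 of 8 had a lower mean, with a median of -0.99, and 6 of them had an unadjusted p-value under 0.05. Their mean was 10.25, 10.99 and 11.05 for the HFD mice and 10.26 and 9.38 for the ob/ob mice, overlapping between the groups. Erythroid and platelet genes had a lower mean for 8 of 10, with a median of -1.49 and 4 lower at an unadjusted p-value under 0.05, eosinophil markers for 4 of 4, with a median of -1.0, and endothelial markers for 4 of 4, with a median of -0.31. The part of these cells in the difference of Ltf was not tested. With the leukocyte markers as a covariate Ltf still differed by -1.96 and Csf3 by -1.86.

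Genes of neutrophil pathways and relatives of the listed genes were described with 8 hand-written lists holding 75 genes, of which 65 had values. These are not all neutrophil genes, as the lists also hold macrophage receptors such as Csf1r and Trem2, widely expressed kinases and STAT factors, and family members such as Trf and Mmp14. By limma, 0 of the 65 passed an adjusted p-value of 0.05. At an unadjusted p-value under 0.05, 32 had higher values under HFD and 0 lower ones, against 11.5% and 8.35% of all genes, while 28 had higher values under ob/ob and 0 lower ones, against 11.6% and 7.18%. The median difference was 0.88 and 0.92. Many of these genes are shared by neutrophils with monocytes and macrophages, whose 8 markers were all higher in both models, with a median of 1.13 in HFD and 1.79 in ob/ob. The summed linear level of these 8 markers was 2120 to 2890 in LFD, 3930 to 6890 in HFD, and 6580 and 11100 in ob/ob.

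Of the transcription factors of granulocyte development, Cebpe, which encodes the C/EBP factor needed for specific granules, had rlog values of 1.83, 1.86 and 1.99 in LFD, 3.28, 3.15 and 3.45 in HFD, and 2.35 and 2.55 in ob/ob. The 3 groups did not overlap, and both obese groups were above LFD. The difference of Cebpe was 1.40 for HFD (standard error 0.23, adjusted p = 0.151 with limma) and 0.56 for ob/ob (standard error 0.25, adjusted p = 0.275), at a level near the lowest of the table. Gfi1, a repressor that steers progenitors to granulocytes, was at 6.77, 6.85 and 6.91 in LFD and lower in all obese mice, with 6.73, 5.59 and 4.74 in HFD and 6.60 and 4.58 in ob/ob. Its lowest values were in HFD replicate 3 and ob/ob replicate 2, the mice with the lowest acinar genes. Prtn3, an azurophil protease, differed by 0.71 in HFD and 0.28 in ob/ob.

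Among other genes of specific and gelatinase granules, 10 of 11 had a higher mean in HFD and 11 of 11 in ob/ob than in LFD. Of them, 7 and 4 were higher at an unadjusted p-value under 0.05, against 11.5% and 11.6% of all genes. Mmp9, the gelatinase, averaged 5.94 ± 0.40 in LFD, 7.80 ± 0.91 in HFD and 7.34 ± 0.34 under ob/ob (mean ± SD). Its differences were 1.86 and 1.39 (adjusted p = 0.176 and 0.224 with limma). The haptoglobin gene Hp, which liver and fat also express, differed by 1.57 and 1.88, and Olfm4, of a subset of neutrophils and of epithelial cells, by 1.83 and 0.84. Hp and Mmp9 were among the 3 of 11 genes that were higher without overlap between obese and LFD mice, as were 9.4% of all genes.

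The 6 subunits of the NADPH oxidase, the enzyme of the respiratory burst, were all higher in both models, by a median of 0.75 in HFD and 1.20 in ob/ob. Cybb, the catalytic subunit, averaged 8.59 ± 0.40 in LFD, 9.47 ± 0.43 in HFD and 10.01 ± 0.54 under ob/ob (mean ± SD). The oxidase genes thus had their highest mean in ob/ob, with a median of 0.35 relative to HFD. The mice of the 2 models overlapped for all 6, and 0 of them had p below 0.05 before adjustment (limma). The 6 neutrophil genes of the list had a higher mean in HFD, but for Mmp8, Csf3r and Trem1 this difference was small. From HFD to ob/ob these 3 changed by -0.29, -0.24 and -0.26, and Ltf, Csf3 and Retnlg by -1.87, -1.34 and -0.86. Ncf1 differed by 1.05 and 1.34 and Ncf4 by 0.79 and 1.42 from LFD. Among 11 receptors of neutrophils, 10 had a higher mean in each model. Of them, 7 and 8 were higher at an unadjusted p-value under 0.05, against 11.5% and 11.6% of all genes. Clec4d, a C-type lectin, differed by 1.42 in HFD and 1.98 in ob/ob, the complement receptor C5ar1 by 1.36 and 1.81, and the formyl peptide receptor Fpr2 by 1.62 and 1.49.

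In the signalling chain of the G-CSF receptor, the kinases Jak1 and Tyk2 and the factors Stat3, Stat5a and Stat5b differed from LFD by at most 0.33 in size in both models, and Jak2 by 0.75 and 0.42 (these 6 were named after their values were seen). The kinase Lyn differed by 0.59 and 0.72 from LFD (adjusted p = 0.222 and 0.224 with limma), and Socs3, the feedback inhibitor, by 0.67 and 0.98. All 6 other colony-stimulating factors and receptors had a higher mean in both models. Csf2rb and its near copy Csf2rb2, between which reads may be shared, differed by 1.62 and 1.66 in HFD and by 1.54 and 1.30 in ob/ob, and Csf1r, the macrophage receptor, by 0.99 and 1.78. Of the TREM family and its adaptors, Tyrobp, through which Trem1 signals, was higher by 1.00 and 1.41. Trem2, a macrophage receptor, differed by 0.95 and 2.04 and Treml2 by 1.14 and 0.85. Of 9 relatives of the listed genes, 6 had a higher and 3 a lower mean in each model, with a median of 0.42 in HFD and 0.44 in ob/ob. Retn, the resistin gene related to Retnlg, differed by -0.65 and -0.71 and was named after its values were seen. The metalloproteinases Mmp13 and Mmp14 were higher by 2.03 and 1.40 in HFD and by 1.12 and 1.63 in ob/ob, and transferrin (Trf), of the family of Ltf, by 0.49 and 1.56.

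**Figure D3:**
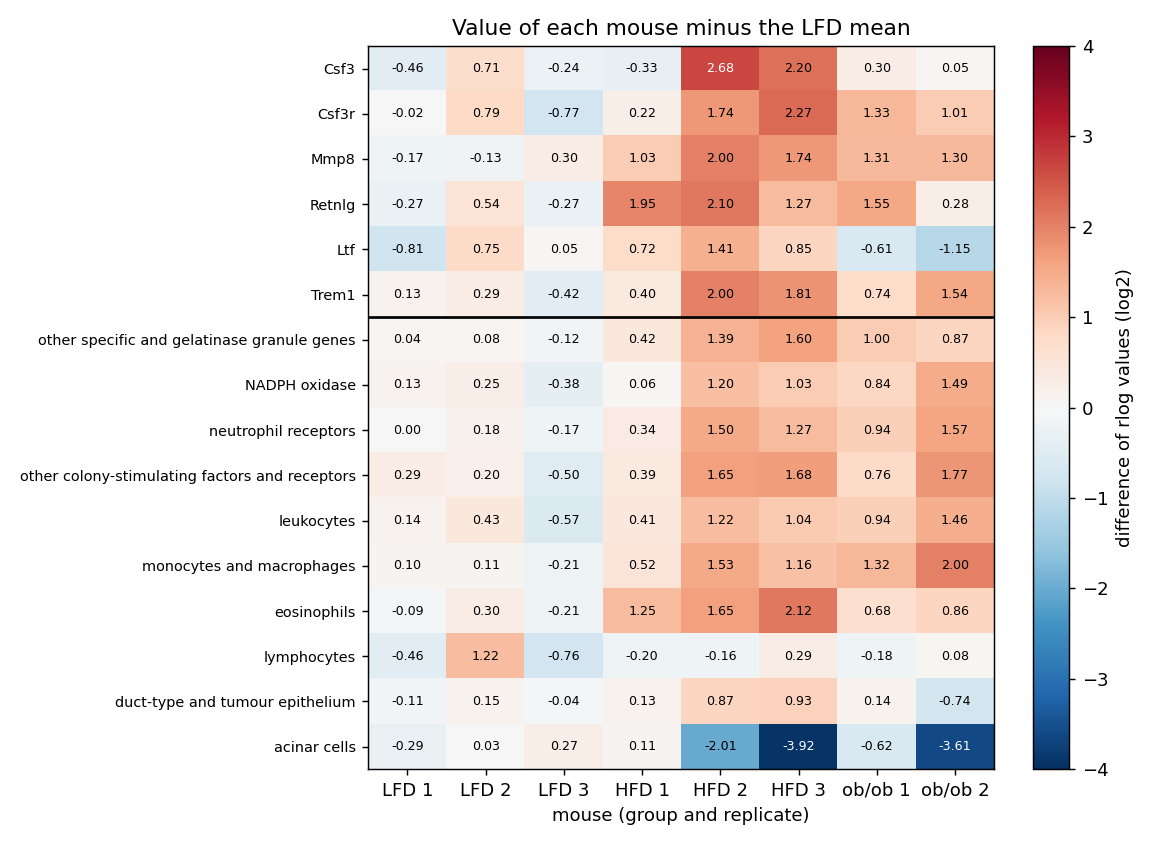
Value of each mouse minus the mean of the 3 LFD mice (difference of rlog values, log2), for the 6 neutrophil genes above the line and the mean of each gene list below it. HFD replicate 1 is 0.06 above LFD for the NADPH oxidase and 0.41 for leukocytes, but 1.03 for Mmp8 and 1.95 for Retnlg. In the same mouse the eosinophil list is at 1.25, Csf3 at -0.33, Csf3r at 0.22, Ltf at 0.72 and Trem1 at 0.40.

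Other leukocytes were followed with marker lists. The 4 eosinophil markers with values were higher in all 5 obese mice by their mean, with a median difference of 1.63 in HFD and 0.70 in ob/ob, while 3 further markers (Prg2, Ear1 and Ear6) were not analysed here. The 8 lymphocyte markers had a median difference of 0.02 in HFD and 0.26 in ob/ob, and LFD replicate 2 had their highest mean, 5.48. Erythroid and platelet genes, which tell of blood in the tissue, had their highest mean in HFD replicate 3, 9.25, and were between 7.04 and 8.09 in the other mice. Fibroblast markers were higher for 4 of 5 in HFD and 5 of 5 in ob/ob, with a median of 1.14 and 1.09, and endothelial markers had medians of 0.43 and 0.09. Mast cell and basophil markers had medians of -0.21 and 0.14. The part of each of these cells in the values of the neutrophil genes was not tested.

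Within a mouse, the neutrophil genes can be set against the leukocyte markers as a difference of rlog values. For Trem1 this difference lay between -4.24 and -3.95 in LFD and at -4.30 and -4.02 in ob/ob, whereas it was -4.11, -3.32 and -3.32 in HFD replicates 1 to 3. That of Ltf was -1.09, 0.18 and 0.48 in LFD, between -0.34 and 0.17 in HFD, and -1.70 and -2.76 in ob/ob, below all other mice. Retnlg had its highest difference in HFD replicate 1, -2.82, and its lowest in ob/ob replicate 2, -5.54. That of Mmp8 was -6.11, -6.36 and -4.93 in LFD, -5.18, -5.01 and -5.09 in HFD, and -5.43 and -5.96 in ob/ob. By this measure Mmp8 in every obese mouse lay below LFD replicate 3, so the obese mice overlapped with LFD. Trem1 and Csf3r followed the leukocyte mean over the 8 mice most closely (Pearson r of 0.91 and 0.852), and Ltf least (0.00873). These coefficients describe 8 mice that share 3 groups and differ in acinar content.

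**Figure D4:**
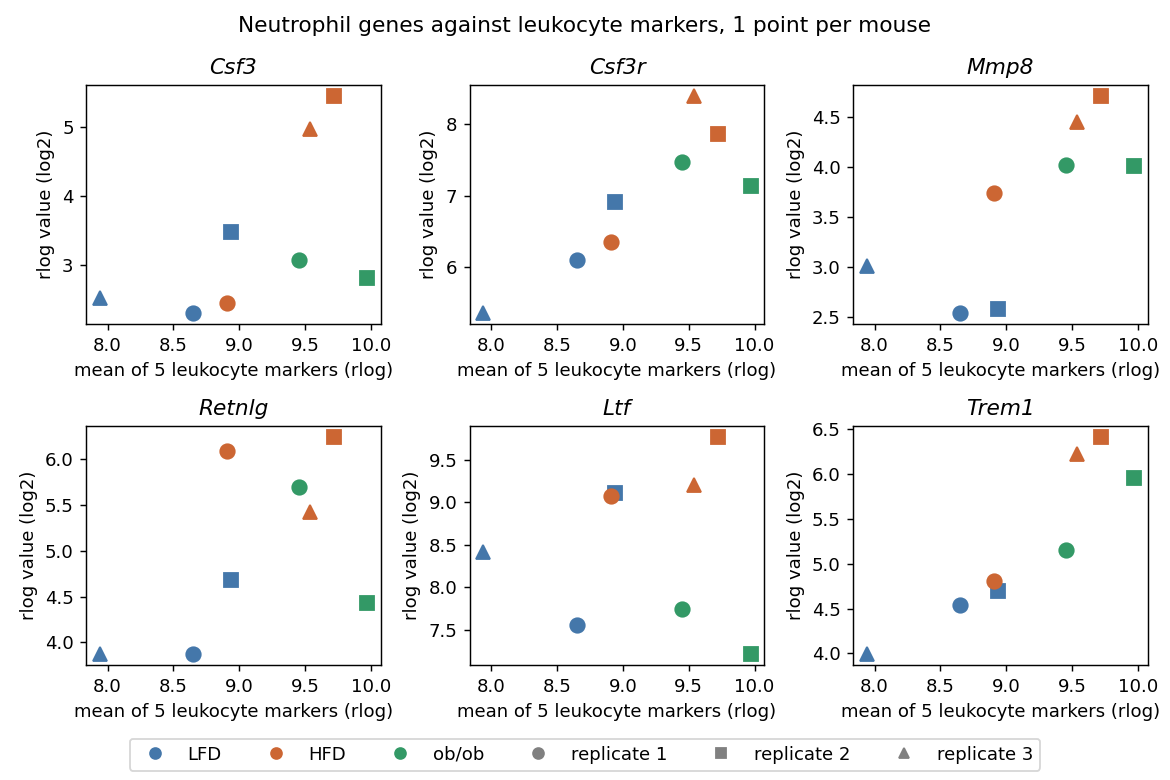
The rlog value of each of the 6 genes (log2 scale) against the mean rlog value of 5 leukocyte markers, with 1 point per mouse, the color as the group and the symbol as the replicate number. Trem1 and Csf3r follow the marker mean, and Ltf in the ob/ob mice is low at a high marker mean.

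Among the 6 genes, Csf3r and Trem1 had the most alike values over the 8 mice (r of 0.897), followed by Mmp8 and Trem1 (0.858) and by Csf3 and Csf3r (0.817). Ltf was least like Trem1 (0.268), Mmp8 (0.312) and Csf3r (0.333). The average of the 6 genes, each centred on its mean, was -0.97, -0.21 and -0.93 in LFD, -0.04, 1.28 and 0.99 in HFD, and 0.07 and -0.20 in ob/ob. Among genes averaging at least 5 on the rlog scale, the 10 most like this average were Hist4h4, Mboat1, Il1r2, Stra6, F5, Serpinb5, Ctla2a, Hist1h2be, Itga2 and Krt7, with r between 0.975 and 0.987 over 8 mice. Il1r2, the decoy receptor of interleukin 1 on neutrophils, was at 4.66, 5.85 and 5.03 in LFD, 5.98, 7.49 and 7.50 in HFD, and 6.38 and 5.65 in ob/ob. Krt7, a keratin of duct epithelium, was at 8.92, 9.74 and 8.89 in LFD, 9.78, 11.52 and 11.63 in HFD, and 9.87 and 9.39 in ob/ob. Both had their highest values in HFD replicates 2 and 3. Chosen after the values were seen, the acute phase gene Saa3 was among the 5 genes most like Mmp8 (r of 0.973), with 6.01, 6.43 and 6.19 in LFD, 8.16, 9.33 and 8.67 in HFD, and 8.40 and 8.37 in ob/ob.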

How the data were processed

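Pancreas RNA of 8 male mice was sequenced, with groups taken from the titles of the sample labels and 1 column of values per mouse. The authors sequenced paired-end libraries, quantified Gencode M18 transcripts (GRCm38.p6) with Salmon 0.11.3, brought them to gene level by tximport and applied rlog from DESeq2 1.22.2 to the counts. The deposited values are rlog values on a log2 scale for 15047 genes, and the filter that left them is not given in the sources used here. Counts were not used, so depth is unknown and the error is the spread between mice. Strand settings are not given in the sources used here.

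One limma fit (version 3.58.1, R 4.3.3) held all 8 mice, 1 mean for each group and a variance trend on the mean, and p-values were adjusted over all genes with the Benjamini-Hochberg method. Exact permutation tests used SciPy 1.17.1, for 5 obese against 3 LFD mice only, as 3 against 3 and 3 against 2 cannot go below 0.1 and 0.2. Coordinates are those of Gencode M21, and promoters are from RefSeq on GRCm38.p6, with 9 of 10 genes matched and Csf3 not matched. Printed bases end before the earlier of the RefSeq and Gencode starts. The step with limma was tested on simulated data for obese against LFD (15047 genes, 50 changed at each size). Of genes changed by 2, 4, 8 and 16 residual SDs, 0%, 34%, 100% and 100% passed an adjusted p-value of 0.05, with 2 false calls.

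The genes and lists were chosen with earlier results of these data known. Besides the listed genes, up to 3 genes per list with the largest difference between obese and LFD mice and the 10 genes most like the average were named, except 1 gene that is not reported here, and other genes are said to be chosen after their values were seen. As alternatives, the fit was repeated with no variance trend, on just the groups under comparison, over genes averaging at least 5, after median centring or quantile normalization, with a variance weight per group, with the replicate number as a block, with the acinar mean as a covariate, and without each mouse in turn. A leukocyte covariate and leaving out both mice with the lowest acinar genes were added after seeing the data.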

Additional observations from a re-analysis of the deposited data

Results flagged for a closer look

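Ltf lay on opposite sides of LFD in the 2 obesity models, as all 3 HFD mice were above the LFD mean and both ob/ob mice were below it. The difference of ob/ob from HFD was -1.87 (standard error 0.43), and the test of this difference with limma gave an adjusted p of 0.883, so that it did not pass. The groups hold 2 and 3 mice, and no group was large enough for a test of single outlying mice.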

How the results depend on the processing

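Sequencing depth is not known for these mice, and the shrinkage by rlog was not compared with unshrunken values. Main counts of the 6 genes with an unadjusted p under 0.05 were 5 for HFD and 1 for ob/ob set against LFD, 4 for obese against LFD, and 1 between ob/ob and HFD. Of all genes, 19.8%, 18.8%, 25.4% and 3.91% had such a p in either direction. With the acinar covariate the first 3 counts were 3, 2 and 2 (10.8%, 10.0% and 11.3% of all genes), the medians of ob/ob and obese against LFD were 0.49 and 0.64, and Csf3 reversed to -0.61 in ob/ob. With the leukocyte covariate the 4 counts were 2, 0, 1 and 2 (3.88%, 2.59%, 3.02% and 4.29% of all genes), and the median for HFD was 0.50. The medians of ob/ob and obese against LFD reversed to -0.50 and -0.16, as did Csf3r (-0.59 and -0.24), Csf3 (-1.80 and -0.87), Trem1 (-0.42 and -0.08) and, for obese, Ltf (-0.23). For ob/ob against LFD the count was 3 with only the groups compared (26.1% of all genes). It was 0 over genes with a mean of at least 5 (19.9%), which leaves out Mmp8 and Csf3. It was 2 with median centring (19.2%), with group weights (21.5%) and with the replicate block (21.6%). Of the 2 with median centring, Mmp8 was higher but Ltf was lower, at -0.97. Without both acinar-poor mice, which leaves 1 ob/ob mouse, Csf3r reversed to 0.36 in ob/ob against HFD. With group weights 1 gene, Mmp8, had an adjusted p under 0.05 (0.0396) in obese against LFD, as had 2.9% of all genes. Median centring turned Ltf to -0.03 in obese against LFD. It also gave 1823 genes higher and 2109 lower in obese mice at an unadjusted p under 0.05, against 2186 and 1639.

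On leaving out each mouse, the unadjusted counts went from 2 to 6, 1 to 3, 2 to 5 and 1 to 2, while the share of all genes went from 9.84% to 36.2%, 5.0% to 27.1%, 13.5% to 38.7% and 2.45% to 7.42%. The adjusted counts went from 0 to 5 (HFD) and 0 to 5 (obese). Leaving out HFD replicate 1, whose acinar genes were at the level of LFD, gave the highest. The count was 3 (without LFD replicate 1) and 2 (without LFD replicate 3 or HFD replicate 2) for HFD, and 2 for obese without LFD replicate 3. For ob/ob against LFD it was 2 without LFD replicate 1, where Mmp8 was higher but Ltf was lower, at -1.28. The count for ob/ob against LFD was 3 without LFD replicate 2 or HFD replicate 1. For ob/ob against HFD it was 2 without HFD replicate 1. Fits without an ob/ob mouse leave 1 mouse in that group, so their counts are not listed singly. Retnlg in ob/ob against LFD was 0.28 without ob/ob replicate 1 and 1.55 without ob/ob replicate 2. Csf3 in ob/ob against LFD became -0.06 without LFD replicate 1 and was at most 0.53. Ltf in obese against LFD became -0.35 without LFD replicate 1, -0.05 without HFD replicate 2 and -0.08 without ob/ob replicate 1, and was at most 0.43. In ob/ob against HFD, Trem1 became 0.04 without HFD replicate 2 and 0.14 without ob/ob replicate 1, and Csf3r 0.19 without HFD replicate 3, while their lowest values were -0.76 and -0.83. The exact test was not run without single mice, since 4 against 3 and 5 against 2 cannot go below 0.0571 and 0.0952. Whether the replicate numbers pair the mice is not given in the sources used here. The correlation of the deviations of same-numbered mice went from -0.281 to 0.592. It cannot settle this, since the deviations of the 2 ob/ob mice from their mean mirror each other. Apart from the count above, the replicate block changed none of the counts by more than 1.5 times. The causes of these changes were not tested.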
